A study of Mus musculus with 3 samples.

Results

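The transcripts described here encode 9 proteins of microRNA-guided silencing. They are Tnrc6a, Tnrc6b and Tnrc6c, Ago1, Ago2 and Ago3, Dicer1, Drosha, and Ddx6. They were chosen by gene name from a deposited list of crosslink positions, over every segment type, and make up 9 of 14592 gene names and 1565 of 462392 positions. All 9 names had at least 1 listed position.

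Individual-nucleotide resolution crosslinking and immunoprecipitation (iCLIP) maps to the base where a protein touches RNA. Here an antibody named Brf1/2 was used to pull down RNA bound by ZFP36L1, a protein that binds AU-rich elements. Intact cells were given 300 mJ/cm2 of ultraviolet light. The cells were total naive thymocytes of strain C57BL/6JBabr. They came from the Zfp36l1 and Zfp36l2 double conditional knockout, called DCKO (1 library), and from wild type, called WT (2 libraries from independent experiments). What drives the deletion, the age of the mice and their number are not stated in the labels. Each position carries a single pooled value, and the sources do not say which of the 3 libraries contributed to it. Because Zfp36l1 is a gene targeted in the DCKO, a listed position is not by itself shown to be a ZFP36L1 crosslink. DCKO and WT therefore cannot be compared, no value has a replicate error, and every value below describes the pooled list.

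In microRNA silencing, DROSHA cuts primary microRNA transcripts in the nucleus and DICER1 cuts the exported hairpins into mature microRNAs. Argonaute proteins hold the mature microRNA and pair it with target mRNAs. TNRC6 proteins bind Argonaute and recruit the CCR4-NOT deadenylase, and the helicase DDX6 links that complex to translational repression and decapping. ZFP36 proteins also recruit CCR4-NOT, to mRNAs with AU-rich elements.

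A site is a listed position with the authors' false discovery rate (FDR) below 0.05, and a count is the whole number that the authors give a position, which is not adjusted for transcript abundance. Sites no more than 15 nt apart were joined into a cluster. The 9 transcripts held 457 sites among their 1565 positions, 29.2% (95% Wilson interval 27.0 to 31.5), against 28.7% of the positions of all protein-coding genes. This interval and those below on positions or sites treat them as independent, which sites of a cluster are not. They are too narrow, and upper bounds given where no site had a pattern are too low. The counts of the 9 transcripts summed to 2527 over all positions and 932 over sites, out of 814493 and 355784 in the whole list. All 10 thymocyte markers had listed positions, with a summed count of 5234. Of 14 markers of B, myeloid, erythroid, epithelial and stromal cells 11 had listed positions (Cd79a, Cd14 and Foxn1 were at 0), with a summed count of 348. Pecam1, listed here among the stromal markers, held 301 of these, and the next highest, Itgam, held 16. What other cells contributed to the positions below was not tested.

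Sequences at some of the 3′ UTR sites are given first because they differ between the transcripts. Each is 30 nt of GRCm38 on the transcript's strand, with the site of the highest count in its cluster as base 15. Capitals mark TATTTA, a short AU-rich core that ZFP36 proteins bind, and runs of at least 6 T.
Ago2, chr15:73103348-73103377, minus strand: gctttaaatgcaaatgttgcTATTTAtttt
Ago2, chr15:73098670-73098699, minus strand: gtttctgtgtaaactatTATTTAtatccct
Ago2, chr15:73097843-73097872, minus strand: ctttaataatacttttTATTTAttttgtgc
Tnrc6b, chr15:80931050-80931079, plus strand: TTTTTTctttccttgtaatgttggTTTTTT
Tnrc6b, chr15:80937124-80937153, plus strand: agtttaattttattttatttttaccctctc
Ddx6, chr9:44637509-44637538, plus strand: acatatatatatattaTTTTTTTTggatga
Ddx6, chr9:44636601-44636630, plus strand: agagctcagacatttttcTTTTTTTTaaac
Tnrc6c, chr11:117761682-117761711, plus strand: ctagtcagtatatgcttttggttttggttt
Tnrc6c, chr11:117761162-117761191, plus strand: ggaaagggttattttatggtggggtggggg
Ago3, chr4:126342524-126342553, minus strand: gtggggTTTTTTTgTTTTTTatggtatggc
TATTTA stood in the 3 Ago2 windows and in none of the other 7. Tnrc6c is shown although the authors labelled its positions coding, because they lie in its annotated 3′ UTR.

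By the authors' labels, 4 of the 9 transcripts had a 3′ UTR site, Ago2, Tnrc6b, Ddx6 and Ago3, and 17.7% of all 12541 protein-coding genes had one. This comparison is not adjusted for transcript abundance or 3′ UTR length. The 9 transcripts had 116 sites labelled 3′ UTR, with a summed count of 269. Of their 289 listed 3′ UTR positions 40.1% were sites (34.7 to 45.9), near the 37.8% of all protein-coding 3′ UTR positions. With the FDR below 0.01 the shares were 36.7% and 33.4%. Ago2 led with 37 sites and a summed count of 110, rank 44 among the 2222 genes with a 3′ UTR site. Tnrc6b followed with 47 sites and 85 counts (rank 73), and Ddx6 with 30 sites and 71 counts (rank 95). Ago3 had 2 sites and 3 counts, and the median gene with a 3′ UTR site had 4 sites and 8 counts. No spread between libraries exists for this order. Counts were low: of the 289 positions 42.2% had a count of 1 and 48.4% a count of 2, and the shares over all protein-coding 3′ UTR positions were 39.1% and 51.3%.

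The lowest signal called a site differed between the transcripts. The authors' extended value, the sum of counts within 15 nt, was at least 7 at the Ddx6 3′ UTR sites and at most 4 at the other listed positions of that 3′ UTR. The same bounds were 6 and 4 in Ago2, 4 and 3 in Tnrc6b, and 3 and 1 in Ago3. In Dicer1 a 3′ UTR position with an extended value of 3 was not a site. A transcript without a site is thus not shown to lack crosslinks, and Tnrc6a (7), Ago1 (9), Dicer1 (14) and Tnrc6c (1) had listed 3′ UTR positions with no site among them. With the same minimum of 4 in every gene, an alternative chosen after seeing the data, the 3′ UTR sites were 127 in 3 transcripts, without Ago3.

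**Figure D1:**
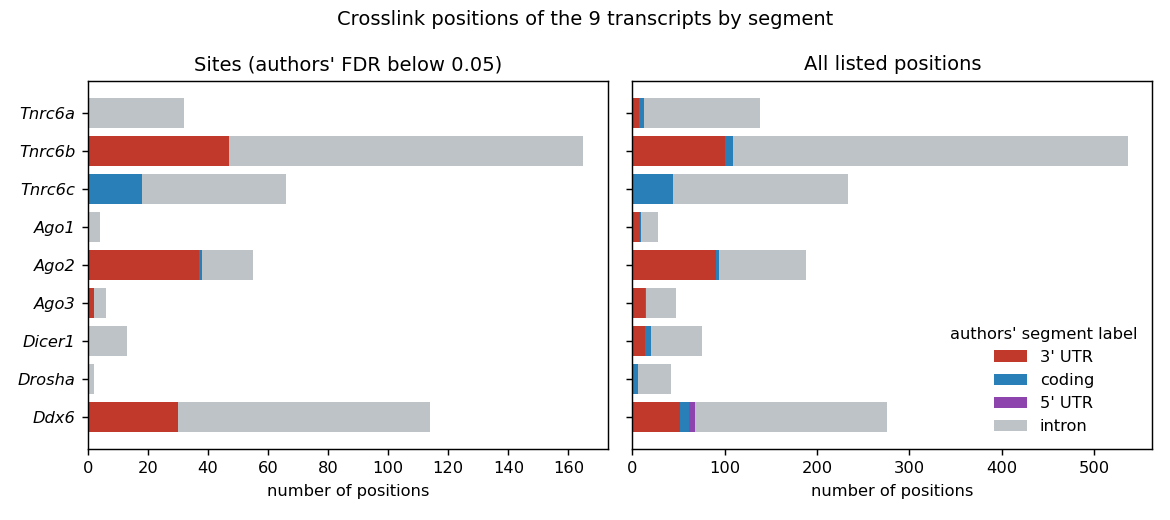
Number of sites (left) and of all listed positions (right) of each transcript, stacked by the authors' segment label. Tnrc6b had the most of both, 165 sites among 536 positions, and Drosha had 2 sites among 42 positions.

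AGO2 is the Argonaute that can also cleave its targets. Its gene (ENSMUSG00000036698.11) lies at chr15:73095844-73184935 on the minus strand and has an annotated 3′ UTR of 11064 nt. All 37 of its 3′ UTR sites fell into 3 clusters. The strongest spanned 66 nt (chr15:73103342-73103407) and held 25 sites with a summed count of 78, which is 70.9% of the Ago2 3′ UTR site counts. From 5′ to 3′ its counts were 1, 3, 2, 2, 4, 1, 2, 1, 1, 1, 7, 1, 8, 2, 2, 4, 2, 8, 6, 6, 4, 2, 2, 2 and 4. The higher counts stood in the 3′ part, where the second position with a count of 8 reads caaatgttgcTATTTATTTTTTcctctctc (chr15:73103338-73103367).

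The other Ago2 clusters were narrower. At chr15:73098678-73098701 the 6 sites had counts of 2, 2, 2, 8, 2 and 3, and at chr15:73097851-73097863 they had counts of 2, 2, 2, 4, 1 and 2. In the strongest cluster TATTTA began 6 nt downstream of the first position with a count of 8, and the second such position lay inside TATTTA. In these 2 narrower clusters it began 3 and 2 nt downstream of the position with the highest count, in the order given. The Ago2 3′ UTR holds 7 copies of TATTTA and 2 of the longer TTATTTATT, and 3 of the 7 had a site within 20 nt. The other 4 copies, at 672, 1158, 7709 and 11049 nt after the coding sequence, had none.

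Of the 37 Ago2 sites 26 had TATTTA within 20 nt, 70.3% (54.2 to 82.5), whereas 28.9% of all protein-coding 3′ UTR sites did. By count the Ago2 share was 81.8% (73.6 to 87.9). Sites of a cluster share the same copy of TATTTA, so these intervals, which cover counting error and treat sites as independent, are too narrow. A run of 6 T lay near 13 of the 37 sites (35.1%), against 32.0% of all protein-coding 3′ UTR sites. All 13 were in the strongest cluster, where 15 of the 25 sites were near TATTTA. In coding sequence Ago2 had 1 site (position 73116312 of chromosome 15, 4 counts). Its 17 intron sites all lay in soft-masked (repeat) sequence, and the highest count among them was 3, at position 73142020.

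The other Argonautes had little 3′ UTR signal. Ago3 (chr4:126331704-126429556, minus strand) has an annotated 3′ UTR of 12938 nt with 9 copies of TATTTA, none with a listed position within 20 nt. Its 14 listed 3′ UTR positions summed to 15 counts, and its 2 sites, with counts of 2 and 1, lay at 2 runs of T. Ago1 (chr4:126435012-126468583, minus strand) had 9 listed 3′ UTR positions with 12 counts (the highest, 2, at 126435167, 126437223 and 126437873), no site, and 1 copy of TATTTA in 4491 nt. Per kb of 3′ UTR the listed positions numbered 8.22 in Ago2, 2.0 in Ago1 and 1.08 in Ago3. Per kb of coding sequence they numbered 1.16, 0 and 0.38, from 3, 0 and 1 positions, and these few positions do not settle how abundant the 3 mRNAs were.

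**Figure D2:**
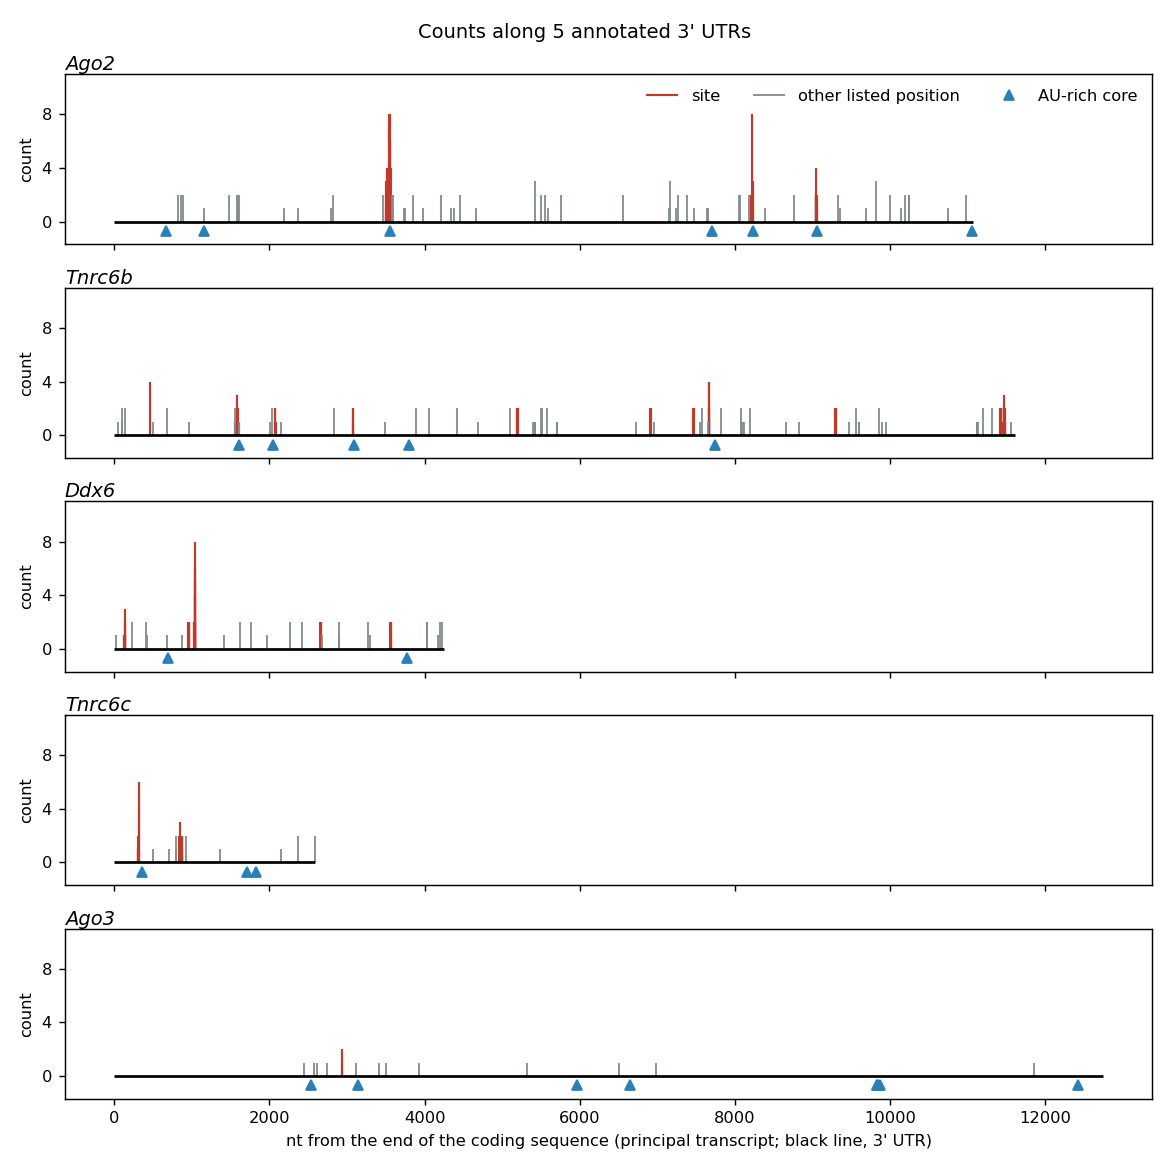
Count at each listed position along 5 annotated 3′ UTRs, in nt from the end of the coding sequence, with sites in red, other listed positions in grey and copies of the AU-rich core as triangles. In Ago2 the 3 clusters of sites each stand at a triangle, whereas in Ago3 the 9 triangles have none within 20 nt.

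TNRC6 proteins, also called GW182 proteins, are the scaffolds of the complex. Tnrc6b (ENSMUSG00000047888.10, chr15:80711313-80941085, plus strand) has a 3′ UTR of 11609 nt and had 47 sites in 11 clusters spread along it. Of the 11 clusters 2 are described here. At chr15:80931033-80931079 the 10 sites had counts of 1, 1, 2, 1, 2, 1, 3, 2, 1 and 1, and at chr15:80937137-80937142 the 5 sites had counts of 2, 4, 2, 4 and 1. No Tnrc6b 3′ UTR count exceeded 4, whereas the highest in Ago2 was 8.

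Most Tnrc6b sites stood near runs of T. A run of at least 6 T lay within 20 nt of 30 of the 47 sites, 63.8% (49.5 to 76.0), against 32.0% of all protein-coding 3′ UTR sites. These 30 sites were spread unevenly over the 11 clusters. All 10 sites at chr15:80931033-80931079 and 2 of the 5 at chr15:80937137-80937142 were near a run. Several other clusters, such as chr15:80934664-80934676, had no site near one. TATTTA lay near 4 of 47, 8.51% (3.36 to 19.9), although the 3′ UTR holds 5 copies and 3 of them had a site within 20 nt. The highest count, 4, stood at positions 80929944, 80937138 and 80937141 of chromosome 15, none near TATTTA.

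Tnrc6c (ENSMUSG00000025571.13, chr11:117654289-117763439, plus strand) had 18 sites labelled coding, of which 16 lie in the GENCODE 3′ UTR of 2588 nt. Over all protein-coding genes 34.2% of sites labelled coding lie in a GENCODE 3′ UTR. These 16 sites had a summed count of 31 and formed 2 clusters. At chr11:117761158-117761176 the counts were 2, 1, 1, 1, 4 and 6, and TATTTA began 29 nt after the highest of them, outside the window of 20 nt. At chr11:117761692-117761728 the 10 sites had counts of 1 to 3. TATTTA lay within 20 nt of 0 of the 16 sites (upper Wilson bound 19.4%), and a run of 6 T near 9. By annotation 5 of the 9 transcripts thus had a 3′ UTR site, and 20.6% of all matched protein-coding genes did. This comparison is likewise not adjusted for transcript abundance or 3′ UTR length.

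Tnrc6a (ENSMUSG00000052707.8, chr7:123123885-123195296, plus strand) had 7 listed 3′ UTR positions with 13 counts and no site. The highest count there, 2, was tied over 6 positions, the first at 123193110. Its 32 sites were labelled intron, and 27 of them, with 52 counts, also lie within the long non-coding RNA gene Gm45846 on the same strand. Those counts cannot be told apart between the 2 genes. The strongest Tnrc6a cluster, with counts of 4, 2, 2 and 2 at chr7:123131993-123132001, was near TATTTA at all 4 sites. Its highest intron count, 4, was shared by positions 123131993, 123162455 and 123174081 of chromosome 7.

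DDX6 is an RNA helicase of processing bodies. Its gene (ENSMUSG00000032097.10, chr9:44604892-44640731, plus strand) had the highest 3′ UTR site density of the 9 by the authors' label, 7.06 per kb over 4250 nt, followed by Tnrc6b with 4.05 and Ago2 with 3.34. In the GENCODE 3′ UTR under any label Tnrc6c had 6.18 per kb, between Ddx6 and Tnrc6b. By the authors' label the density over the 9 transcripts was 2.18 per kb, and over all matched protein-coding genes it was 0.716. The strongest Ddx6 cluster, chr9:44637510-44637528, had counts of 2, 2, 2, 1, 8, 6, 4, 2, 6 and 5, which make up 53.5% of its 3′ UTR site counts. The highest stood 2 nt before a run of 8 T that follows an alternating TA stretch.

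None of the 30 Ddx6 3′ UTR sites was near TATTTA (upper Wilson bound 11.4%), and neither of the 2 copies in this 3′ UTR, at 695 and 3777 nt, had a site within 20 nt. A run of 6 T lay near 25 of the 30 sites, 83.3% (66.4 to 92.7), and the site itself was a T at 27 of them. The 5 clusters lay at 134, 949, 1042, 2652 and 3553 nt after the coding sequence. Ddx6 also had 6 listed positions in its 5′ UTR with 10 counts, and no site there, whereas 21.1% of all protein-coding 5′ UTR positions were sites. None of the 457 sites was labelled 5′ UTR, and 0.557% of protein-coding sites were.

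Transcripts of the processing enzymes had no 3′ UTR site. Dicer1 (ENSMUSG00000041415.10, chr12:104687742-104751952, minus strand) had 14 listed 3′ UTR positions with 23 counts, 9 of them tied at the highest count of 2 (the first at 104688314), and 6 coding positions with 8 counts. Drosha (ENSMUSG00000022191.16, chr15:12824815-12935291, plus strand) has a short 3′ UTR of 169 nt with no TATTTA. It had 0 listed 3′ UTR positions, and its 6 positions labelled coding had 9 counts. Its highest intron count, 2, was tied over 18 positions, the first at 12840531. Of these the 2 sites lay in an intron at chr15:12891122-12891124 in the repeat tgtaagtgcgtgcatgcgtgtgtgtgtgtg (chr15:12891108-12891137).

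Within the same transcripts, listed positions were denser in the 3′ UTR than in coding sequence for 8 of the 9, all but Drosha, a comparison in which both segments share the abundance of one mRNA. Per kb, the 3′ UTR of the 9 had 5.88 positions and their coding sequence 1.49, a ratio of 3.95, whereas all matched protein-coding genes had 2.17 and 0.84, a ratio of 2.59. The ratio was 7.08 in Ago2, 6.09 in Tnrc6b, 3.94 in Tnrc6c, 3.47 in Dicer1, 3.02 in Tnrc6a, 2.85 in Ago3 and 1.78 in Ddx6. It was 0 in Drosha, and Ago1 had 0 positions in annotated coding sequence. The coding positions behind these ratios number 1 to 14 per transcript, so their order is loose. No test of the difference from other genes could be made without libraries as replicates.

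**Figure D3:**
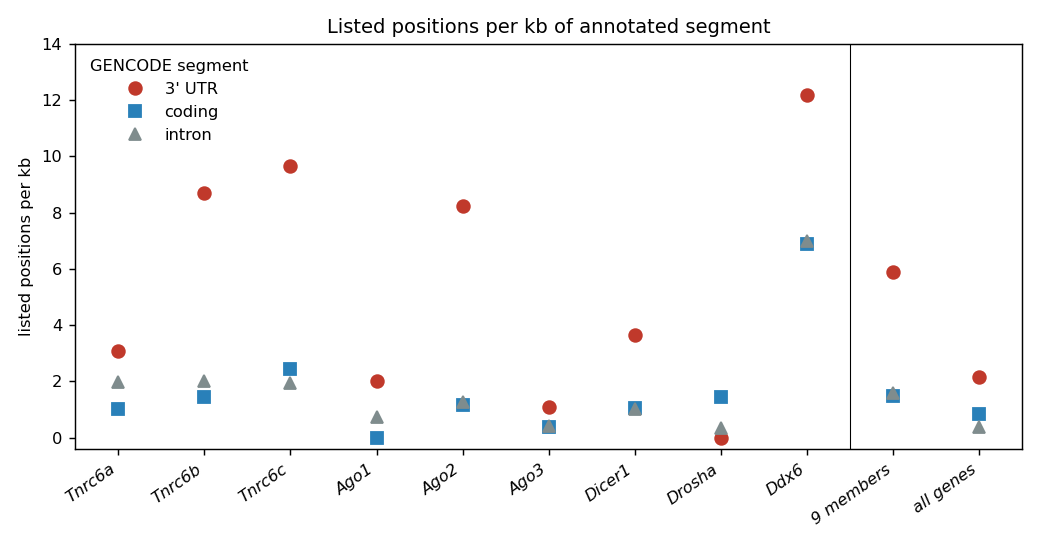
Listed positions per kb of GENCODE 3′ UTR, coding sequence and intron, for each transcript, for the 9 together and for all matched protein-coding genes. Ddx6 has 12.2 per kb in its 3′ UTR, 6.89 in coding sequence and 6.99 in introns, against 2.17, 0.84 and 0.383 over all genes.

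Introns held most positions, 1186 of 1565, and 322 of the 457 sites, 70.5% (66.1 to 74.5), against 78.6% of the sites of all protein-coding genes. Of the 1186 intron positions 27.2% were sites, and 28.5% of those of all protein-coding genes were. All 9 transcripts had an intron site, and 55.6% of protein-coding genes did. Ddx6 had 84 intron sites in 29.8 kb, 2.82 per kb, and 99.5% of 11854 genes with at least 1 kb of intron had fewer sites per kb. Tnrc6b had 118 in 212.0 kb (0.556 per kb), Tnrc6a 0.507 and Tnrc6c 0.48, and for each of these 90.2 to 91.7% of genes had fewer. Ago3 and Drosha, with 0.0488 and 0.0189 per kb, stood near the median gene, which had 0.0216.

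TATTTA lay within 20 nt of 37 of the 322 intron sites of the 9, 11.5% (8.45 to 15.4), and of 22.1% of all protein-coding intron sites, a difference that was not tested. The share varied between the transcripts. It was 15.3% of 118 sites in Tnrc6b, 18.8% of 32 in Tnrc6a, 5.95% of 84 in Ddx6 and 2.08% of 48 in Tnrc6c. In Ago2 (5 of 17, 29.4%) and Ago3 (2 of 4) it was above the share of all genes, and in Dicer1 (13 sites), Ago1 (4) and Drosha (2) it was 0. A run of 6 T lay near 40.7% (35.5 to 46.1) against 34.6% in the pool, and TGTGTG near 16.8% (13.1 to 21.2) against 12.6%. These differences were not tested, and clustered sites make the intervals too narrow. Among transcripts with at least 13 sites, a run lay near 64.3% in Ddx6, 40.7% in Tnrc6b and 35.3% in Ago2. It lay near 33.3% in Tnrc6c, 15.6% in Tnrc6a and 0% in Dicer1. TGTGTG lay near 29.4% in Ago2, 28.1% in Tnrc6a and 20.3% in Tnrc6b. Its share was 12.5% in Tnrc6c, 7.69% in Dicer1 and 3.57% in Ddx6. Soft-masked sequence held 74.2% of the sites and 74.7% in the pool. The sources do not say how reads that align to several places were treated.

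Single intron clusters show these patterns. The highest Ddx6 intron count, 8, stood at position 44634080 of chromosome 9, 13 nt before an exon and near a run of 6 T. The highest intron count of Tnrc6b, 9, stood at position 80833207 of chromosome 15, near neither TATTTA nor a run of T. Its cluster of 6 sites at chr15:80737582-80737613 had TATTTA near all of them, and its cluster with the highest sum, 16, lay in ttttggTTTTTTTTTTTgggggggggtttg (chr15:80824097-80824126). In Tnrc6c the highest intron count, 6, stood 8 nt before a TATTTA in aagctactgatctgtttgagttTATTTAtt (chr11:117689989-117690018). The highest Dicer1 count, 5, was a lone site in ctcatcctgaatgccagaggggttgtgtgt (chr12:104748561-104748590), and 0 of the 13 Dicer1 intron sites were near either TATTTA or a run of 6 T.

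Ago1 and Ago3 had 4 intron sites each, and no intron count of either exceeded 2. That count was tied over 14 positions in Ago1, the first at 126439795 of chromosome 4, and over 18 in Ago3, the first at 126350341.

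Some intron sites stood just before an exon, where introns end in a tract of pyrimidines. Of the 322 sites 59 lay within 50 nt upstream of an annotated exon, 18.3% (14.5 to 22.9), against 10.5% of the protein-coding intron sites that could be placed. By share Tnrc6a came first, with 12 of its 32 intron sites (37.5%), followed by Ddx6 with 24 of 84 (28.6%). Dicer1 had 3 of 13 (23.1%) and Tnrc6c 7 of 48 (14.6%). Tnrc6b had 13 of 118, and its interval (6.55 to 17.9) held the 10.5% of all genes. Ago2 had 0 of 17, and Ago1, Ago3 and Drosha, with few intron sites, also had 0. The second strongest Ddx6 intron cluster, with 7 sites and 22 counts at chr9:44607109-44607120, had its highest count 10 nt before an exon, in aatttaaTTTTTTctttgtttcagattgaa (chr9:44607099-44607128). The strongest, with 15 sites and 24 counts at chr9:44606921-44606944, lay 197 nt before the same exon in a long run of T.

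**Figure D4:**
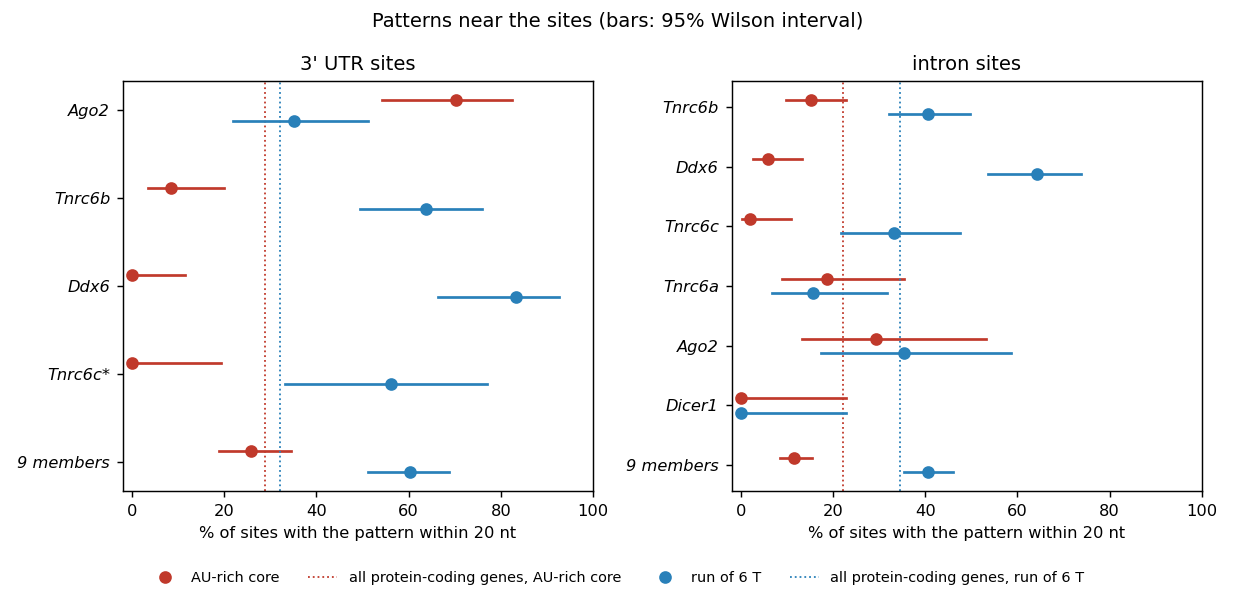
Share of 3′ UTR sites (left) and intron sites (right) with the AU-rich core or a run of 6 T within 20 nt, as points with 95% Wilson intervals, for transcripts with at least 13 sites. Dotted lines give all protein-coding genes, and Tnrc6c* counts its sites in the GENCODE 3′ UTR under any label. Ago2 stands at 70.3% for the AU-rich core in the 3′ UTR, and Ddx6 at 83.3% for runs of T.

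Over the 116 3′ UTR sites, TATTTA lay near 25.9% (18.8 to 34.5), close to the 28.9% of the pool, and a run of 6 T near 60.3% (51.2 to 68.8) against 32.0%. Without Ago2, an alternative chosen after seeing the data, the TATTTA share was 5.06% of sites, so that share rests on Ago2. Soft-masked sequence held 65.5% of the 116 sites and 59.5% of the pool. Neither pattern lay near 32 of them. TGTGTG lay near 0 of the 116 sites (upper Wilson bound 3.21%) and near 7.54% of the pool, and the site was a T at 76.7% against 65.8%. Of the 29 copies of TATTTA in the 9 annotated 3′ UTRs, 6 had a site within 20 nt, 20.7%, with 3 in Ago2 and 3 in Tnrc6b. In all protein-coding genes with a listed 3′ UTR position 1288 of 9900 copies did, 13.0%. The shares with any listed position within 20 nt were 27.6% of the 29 copies and 29.1% of the 9900.

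Other genes of the pathway were listed by role. Of 72 genes 69 had listed positions, and 25 had a 3′ UTR site, 36.2% (25.9 to 48.0), set beside the 17.7% of all protein-coding genes. These shares are not adjusted for transcript abundance or 3′ UTR length. A site was found in 8 of 17 deadenylase and poly(A) binding genes and in 6 of 19 decapping and processing body genes. It was found in 4 of 11 Dicer and RISC loading partners, in 3 of 5 Microprocessor and export genes, in 3 of 11 silencing partners and in 1 of 6 turnover and tailing genes. Ago4, Lin28a and Tob2 had no listed position.

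The 8 of these genes with the highest 3′ UTR site counts differed in sequence as the 9 did. Ddx5, a helicase that binds the Microprocessor, had 65 sites and 184 counts, 1.54% of them near TATTTA, but 6 of its sites lie in its GENCODE 3′ UTR. The deadenylase subunits Cnot8 and Cnot6 had 31 and 30 counts, with 92.3% and 35.3% of their sites near TATTTA, and Dcp2, which removes the cap, had 30 counts and 30.8%. Hsp90ab1 (29 counts), a chaperone, Dhx9 (27), a helicase, and Lsm14a (17), a processing body protein, had 0% of their sites near it. Fmr1, which encodes the RNA-binding protein FMRP, had 12 counts and 42.9%. Over the 206 3′ UTR sites of the list TATTTA lay near 13.6%. Pan3, a subunit of the PAN2-PAN3 deadenylase named after its values were seen, had 0 sites labelled 3′ UTR and 43 sites with 133 counts in its GENCODE 3′ UTR.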

How the data were processed

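The members and gene lists were chosen with earlier results of these data known. The submitters' processing notes name Bowtie and GRCm38, with no version or settings. Details of position calling, segmentation and FDR estimation are not given in the sources used here. In the deposited table, scores per position are a signed whole-number count, its sum within 15 nt (recomputed to the same value at 1563 of 1565 member positions) and an FDR that the authors give, which is 0 at 103576 positions and above 1 at 3825, so it is treated as a score. The deposited p-value was not used. Deposited positions count from 0 (annotated segment edges matched their labels at 1044 positions, against 27 when counted from 1) and are given here from 1. The files hold 0 columns of values per library.

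Segments and lengths came from protein-coding transcripts of GENCODE vM21 with the stop codon as coding, and sequence from the RefSeq copy of GRCm38.p6. The 9 names matched GENCODE, as did 11733 of 14592 directly, and 541 more through an older symbol. Windows were searched on the transcript's strand with pysam 0.24.0, and Wilson intervals came from scipy 1.17.1. Scripts were tested on simulated data. The text names all 9 members, for each the 3′ UTR cluster with the highest summed count and the highest positions in 3′ UTR and introns (all tied positions if 3 or fewer, otherwise the first by coordinate), except that the Tnrc6b cluster this picks is not reported here, and the 8 other pathway genes with the highest 3′ UTR site count; further clusters and Pan3 were named after their values were seen. Alternatives were FDR thresholds, annotation, window, pattern, weighting and left-out transcripts; an extended value of at least 4 and leaving out Ago2 were added after seeing the data. Without library columns, the comparison of DCKO with WT was not made. Total counts per library are unknown.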

Additional observations from a re-analysis of the deposited data

How the results depend on the processing

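No paired analysis was possible because the list has no library columns. For the same reason no library could be left out. With an authors' FDR below 0.01, with the annotated 3′ UTR in place of the authors' label and with older gene symbols, none of the results they were applied to moved beyond 1.5 times (counts) or the Wilson interval (shares and densities). The density was not recomputed with annotation alone. Over all listed positions, 8 of the 9 transcripts and 43 other pathway genes had a 3′ UTR position. The 3′ UTR positions then numbered 289 with a summed count of 530 and a density of 5.43 per kb, and the shares near TATTTA were 11.8% in the 3′ UTR and 5.9% in introns. Without Tnrc6b the 3′ UTR sites numbered 69, their density was 1.66 per kb and their TATTTA share 37.7%. Without Ddx6 the density was 1.76 per kb and the share 34.9%, and without Ago2 the share was 5.06%. Sites with a count of 3 or more summed to 119. With windows of 10 nt the TATTTA share was 15.5% in the 3′ UTR and 6.52% in introns, and with windows of 50 nt it was 42.2% and 21.4%. With TTATTTATT the shares were 5.17% and 4.35%. With ATTTA the intron share was 16.5%, and weighted by count the 3′ UTR share was 35.7%. The pooled 3′ UTR share near TATTTA thus depends on which transcripts, window and pattern are counted. Depth per library is unknown, and counts of 1 and 2 stand at 42.2% and 48.4% of the 3′ UTR positions of the 9, so small counts rank no position above another.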
